A study of Mus musculus with 4 samples.

Results

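The genes described here are 8 receptors of class B of the G protein-coupled receptors that bind glucagon-related peptides (Glp1r, Glp2r, Gipr, Gcgr, Sctr, Vipr1, Vipr2 and Adcyap1r1), together with Dpp4, the cell-surface peptidase that inactivates the incretins. They were chosen by name, and all 9 are on the array, where they make up 9 of 34821 gene names and 17 of 55681 non-control probes. Gene expression had been measured on 4 single-colour Agilent mouse arrays. Of these, 2 carried RNA of islet-like clusters and 2 carried RNA of islets of Langerhans, all from male Swiss albino mice aged 10 to 12 weeks.

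Per the labels, pancreata were pooled from 2 to 4 mice and digested with collagenase without injection into the duct. The islets were rinsed off the flasks, and the fibroblast-like cells left on the plastic were passaged as cells resembling mesenchymal stromal cells. The clusters were grown from these cells for 10 days without serum, on dishes to which cells adhere poorly, in medium with albumin, insulin, transferrin and selenium. They received 0.3 mM taurine from day 3. On day 7 they were given 100 mM nicotinamide, 3 mM taurine and GLP-1, the ligand of Glp1r, at a concentration that the labels print as 100 mM. The titles give the islets 48 h in culture, whereas their descriptions call them freshly isolated. No stromal cells before induction and no clusters without GLP-1 are among the 4 arrays, so the source of the cells, the induction medium and GLP-1 cannot be told apart in any difference given below. Whether each array had a pool of mice of its own is not given in the labels, so that the p-values rest on array-to-array scatter that could be purely technical.

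Class B receptors bind peptide hormones through a large extracellular domain and couple mainly to the stimulatory G protein, which activates adenylyl cyclase and raises cyclic AMP. In beta cells the incretins GLP-1 and GIP act through this route on protein kinase A and Epac2 and increase insulin release at high glucose. Glucagon receptors are best known from the liver but are also present on islet cells, secretin receptors drive bicarbonate secretion by pancreatic ducts, and receptors for VIP and PACAP respond to neuropeptides of the pancreatic nerves. Dpp4 removes the N-terminal dipeptide of GLP-1 and GIP and so ends their action.

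Values are log2 levels: the logarithm of the processed signal after the array's 75th percentile was subtracted on that scale, so that 0 stands for this percentile. They are compared between arrays for the same probe, never between probes. The software marked 59.7% to 63.6% of the spots of an array as well above background. Where a fold is given for a probe not well above background in 1 group, it is set against a floor. The floor is the lowest signal marked as well above background on each array of that group, or the probe's own reading if higher. Unmarked probes can lie above the lowest marked signal, so such a fold is approximate and no strict minimum. Its p-value comes from the readings without the floor. The groups also differed widely in cell type markers: all 10 acinar, all 8 duct and all 8 endothelial markers tested were lower in clusters, and 9 of 10 mesenchymal stromal markers were higher (limma, Benjamini-Hochberg adjusted p below 0.05 over all genes). The insulin genes Ins1 (4.77 and 2.15 on the islet arrays, -3.35 and -3.58 on the cluster arrays) and Ins2 were lower in clusters too. In whole-sample RNA, fewer cells of a type and less RNA per cell cannot be told apart. Gapdh, a glycolytic reference gene, differed by -0.08 ± 0.24 (SE).

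Of the 9 genes, 8 passed the filter on dim probes and were tested. The genes Vipr1, Dpp4, Sctr, Vipr2 and Glp1r were lower in clusters, while Gcgr, Glp2r and Adcyap1r1 did not pass the test and Gipr was too dim to be tested. The 5 lower genes stand against 28.2% of all 24596 genes tested that were called lower (54.8% were called in either direction). None was called higher, against 26.6% of all genes, and none had an unadjusted p below 0.05 in that direction in limma. The median log2 difference of the 8 tested genes was -1.33, beside -0.10 over all genes. A gene enters this count when its signal is high in either group, so the 8 are not a picture of all 9. Dpp4 entered it through the islets alone.

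**Figure D1:**
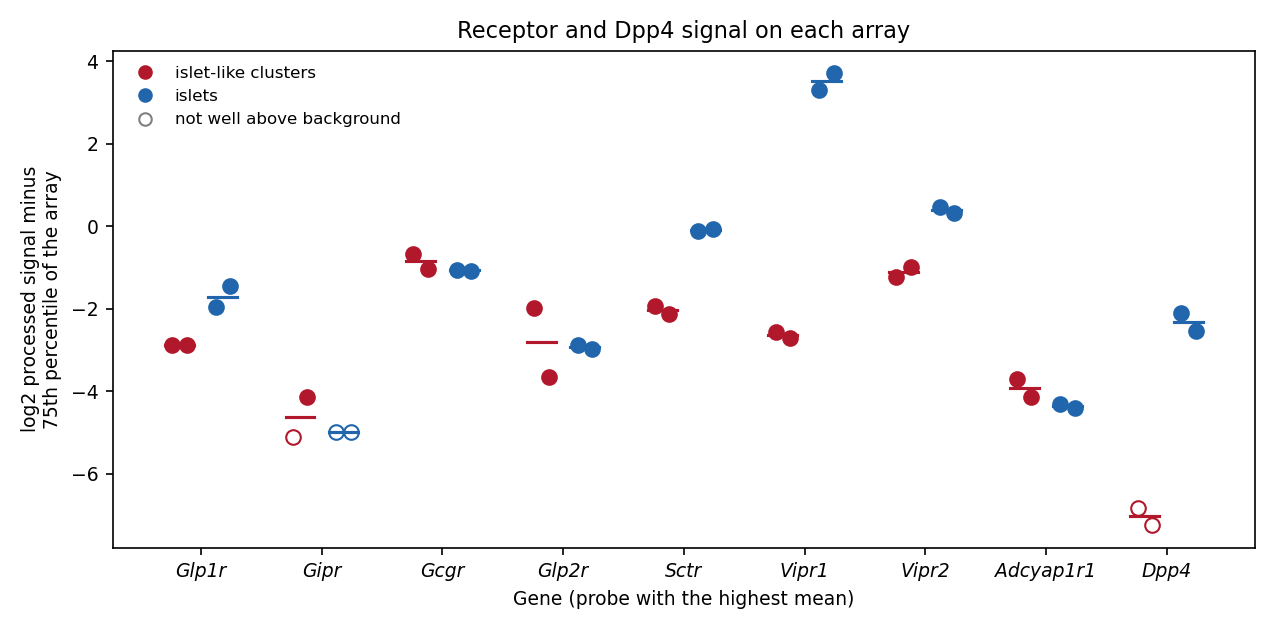
Log2 level of each gene on each array (vertical axis, log2 signal relative to the array's 75th percentile), for the probe with the highest mean. Points are the 4 arrays, lines the group means, and open points were not well above background. The islet points of Vipr1 (3.31 and 3.70) lie far above its cluster points (-2.56 and -2.71), whereas the points of Gcgr lie close together (-1.08 to -0.68).

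Glp1r, the receptor for the peptide that the clusters were given, was read by 2 overlapping probes on mm9 chromosome 17 (chr17:31073256-31073315 and chr17:31073261-31073320, plus strand). The probe sequences are shown because they share 55 bases and yet are not the same sequence there: capitals mark the bases that differ, C8T, T11C and G17A, counted from 1 at the 5′ end of the upstream probe, with its base written before the position.
Glp1r upstream probe: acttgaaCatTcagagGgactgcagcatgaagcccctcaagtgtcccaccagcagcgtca
Glp1r downstream probe: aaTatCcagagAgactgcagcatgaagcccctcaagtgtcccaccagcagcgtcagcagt
On the downstream probe, which stands for the gene as the one with the higher mean, Glp1r lay at -2.87 on both cluster arrays and at -1.96 and -1.46 on the islet arrays. Clusters were thus 2.23-fold lower (log2 difference -1.16 ± 0.25 SE, limma adjusted p = 0.00387), and the groups did not overlap. The upstream probe read -4.80 and -4.82 in clusters, where it was well above background on 1 of the 2 arrays, and -3.01 and -2.87 in islets. In the fit over all probes the difference was -1.87 ± 0.23 for the upstream probe and -1.16 ± 0.26 for the downstream probe (limma adjusted p = 0.000251 and 0.00609). Both probes therefore placed Glp1r lower in clusters, and the downstream probe alone was well above background on both cluster arrays. The probes overlap and are not independent of each other. Which of them matches the genome at the bases that differ was not checked.

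The Glp1r call depended on the arrays used. Without islet replicate 2 the difference was -0.91 with limma adjusted p = 0.217, and without cluster replicate 1 it was -1.16 with adjusted p = 0.0502. It passed in the other 15 of 17 alternatives, and was -0.72 with normexp background correction. That correction added an offset of 50 to every signal before the logarithm, which draws differences between dim signals towards 0. Glp1r was lower on islet replicate 1 than on replicate 2 by 0.50 (replicate 1 minus 2: -0.50). The endocrine hormone genes ran the other way on the same arrays, with Gcg 2.02 and Ins1 2.62 higher on replicate 1.

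Gipr, the receptor for the other incretin, GIP, has a single probe (chr7:19742486-19742545, minus strand). It lay at -5.12 and -4.14 on the cluster arrays and at -4.99 and -4.98 on the islet arrays. It was well above background on cluster replicate 2 alone, and so has no test here. With no filter on dim probes the difference was 0.36 (limma adjusted p = 0.528). Neither group therefore gave a usable level for the GIP receptor.

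Gcgr, the glucagon receptor, was measured on all 4 arrays (chr11:120400221-120400280, plus strand). Its levels of -0.68 and -1.03 in clusters and -1.07 and -1.08 in islets differed by 0.22 ± 0.24 (SE), with a 95% interval of -0.32 to 0.76 and limma adjusted p = 0.460. None of the 17 alternatives called it (adjusted p from 0.0859 to 0.884). The interval leaves out a difference of the size seen for Glp1r. The RNA of Gcg, the glucagon gene, was not well above background in clusters.

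Glp2r, which binds GLP-2, a growth factor for the gut made from the same precursor as GLP-1, has 2 probes on chromosome 11. The probe that stands for the gene runs from 67535508 down to 67525830 on the minus strand. Its 60 bases span 9679 bases of mm9, so it bridges at least 1 intron and reads spliced RNA. It is shown because it is the readout on which the 2 cluster arrays part.
Glp2r junction probe: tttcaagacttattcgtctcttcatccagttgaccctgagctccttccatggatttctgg
The probe read -1.98 and -3.65 in clusters and -2.88 and -2.98 in islets, so that the cluster arrays lay on either side of the islet arrays. The difference was 0.12 ± 0.45 (SE), with a 95% interval of -0.91 to 1.14 and limma adjusted p = 0.846. It became 0.95 without cluster replicate 2 (adjusted p = 0.0393) and -0.72 without cluster replicate 1 (adjusted p = 0.0760), and its direction therefore rests on which cluster array is used. The other probe, farther along the transcript (chr11:67519964-67520023), was not well above background on any array, at -7.30 to -6.82.

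Sctr, the secretin receptor, was lower in clusters on each of its 4 probes, which lie in transcript order along the plus strand of chromosome 1. The probe with the highest mean (chr1:121953023-121953082) read -1.94 and -2.12 in clusters and -0.11 and -0.08 in islets. The groups did not overlap, and clusters were 3.82-fold lower (-1.93 ± 0.23 SE on the log2 scale, with limma adjusted p = 8.63e-05). The size of the difference was not the same along the gene. In the fit over all probes it was -1.93 at this probe, and -4.73 and -4.90 at the pair nearest the 3′ end (chr1:121960008-121960067 and chr1:121960044-121960103, adjusted p = 1.71e-06 and 1.60e-06). The upstream probe (chr1:121943329-121943388) was not well above background in clusters and was lower there by 6.69-fold against the floor (limma adjusted p = 6.04e-05). Its log2 difference with normexp was smaller in size, at -0.95. The upstream probe and the one with the highest mean are shown because they read the same gene with different results: clusters were measurable on the second alone.
Sctr upstream probe: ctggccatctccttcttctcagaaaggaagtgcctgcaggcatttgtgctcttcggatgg
Sctr highest-mean probe: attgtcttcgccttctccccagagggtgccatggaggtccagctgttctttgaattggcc
A range of 2.96 between a gene's probes, as for Sctr, was exceeded by 9.75% of the 6998 genes with several probes tested. Those genes were not matched to Sctr in their number of probes, and a range tends to widen with that number. The gene's difference was -3.59 with the mean of its probes and -3.15 with normexp, under which another probe had the highest mean.

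The 8 duct markers, among them Krt19 and Cftr, were all lower in clusters, as was Sctr. Their summed level (log2 of the sum of the scaled signals) was 0.21 and 0.72 on the cluster arrays against 7.48 and 7.16 on the islet arrays, and 2 of them (Tff2 and Krt7) were not well above background in clusters. The part of duct cells in the Sctr difference was not tested.

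Vipr1, a receptor for VIP and PACAP found on many epithelia, was far lower in clusters on 1 of its 2 probes and less so on the other. The probe that stands for it lies on chr9:121581964-121582023, plus strand, and read -2.56 and -2.71 in clusters and 3.31 and 3.70 in islets. Clusters were 70.5-fold lower (log2 -6.14 ± 0.25 SE, limma adjusted p = 5.89e-08). The groups lay far apart, with little spread inside either of them. The second Vipr1 probe, 2334 bases upstream (chr9:121579630-121579689), read -3.65 and -4.24 in clusters and -2.01 and -2.32 in islets. Its difference in the fit over all probes was -1.78 ± 0.28 (adjusted p = 0.00104), so both probes gave the same direction with very different sizes. Only 3.59% of genes with several probes tested had a wider range than the 4.36 seen here. The gene's difference was -3.96 with the mean of its probes and -5.09 with normexp. The acinar markers, whose summed level was 0.32 and 0.10 in clusters and 11.87 and 12.51 in islets, were also lower in clusters. Of these 10 markers, 6 were not well above background in clusters. All 8 duct and all 8 endothelial markers were lower as well. The part of any of these cell types in the Vipr1 difference was not tested.

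Vipr2, the other VIP receptor, was lower in clusters by 2.84-fold. Its probe with the highest mean (chr12:117384455-117384514, plus strand) read -1.23 and -1.0 in clusters and 0.47 and 0.32 in islets (log2 -1.51 ± 0.23 SE, limma adjusted p = 0.000499). The call was made in all 17 alternatives, with values from -1.70 to -1.15. A probe near the start of the transcript (chr12:117333207-117333266) is shown because it reads the opposite end of the RNA. It was not well above background in clusters and lower there by 2.24-fold against the floor (limma adjusted p = 0.000267 over all probes). With normexp its log2 difference was -0.49, smaller in size than this fold (limma adjusted p = 0.0731).
Vipr2 upstream probe: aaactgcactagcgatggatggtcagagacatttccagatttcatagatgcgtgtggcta
The middle probe (chr12:117382899-117382958) was not well above background on any array.

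Adcyap1r1, which encodes PAC1, the receptor that prefers PACAP, was measured on all 4 arrays (chr6:55450829-55450888, plus strand). It read -3.70 and -4.14 in clusters and -4.31 and -4.41 in islets. These levels are dim: on islet replicate 2 the lowest signal marked as well above background was -4.88. The groups did not overlap, but the difference of 0.44 ± 0.25 (SE) missed the threshold (95% interval -0.12 to 1.01, limma adjusted p = 0.162). Of the 8 tested genes, 2 (Adcyap1r1 and Gcgr) had both cluster arrays above both islet arrays, as had 37.2% of all genes. The 5 called genes had both below, as had 42.7% of all genes. Adcyap1r1 was called higher with scaling to the array median (0.64, adjusted p = 0.0425) and with quantile normalization (0.64, adjusted p = 0.0425), and was -0.07 with normexp.

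Dpp4 was measured in islets and not in clusters. Its probe (chr2:62170062-62170121, minus strand) read -2.10 and -2.55 in islets and -6.82 and -7.25 in clusters, where it was not well above background on either array. The -6.82 is no measured level, since the second Glp2r probe and the middle Vipr2 probe have the same value on that array. Clusters were lower by 7.37-fold against the floor. The limma fit (adjusted p = 5.60e-07) used the cluster values as they stand. Its log2 difference of -4.71 became -2.88 with the floor and -1.10 with normexp. The normexp offset of 50 is near the islet signals (76.0 and 42.5) and far above the cluster signals (2.91 and 2.55). The call was made in all 16 alternatives that could test it. Of the lymphocyte markers, whose cells also carry DPP4 protein, 4 of 7 were tested and 1 was lower in clusters. Their summed level was 2.47 and 2.04 in clusters and 2.42 and 2.80 in islets. The acinar, duct and endothelial markers tested were all lower in clusters, with medians of -13.49, -4.91 and -5.63. Of the mesenchymal stromal markers, 9 of 10 were higher. The part of lymphocytes or of any other cell type in the Dpp4 difference was not tested.

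**Figure D2:**
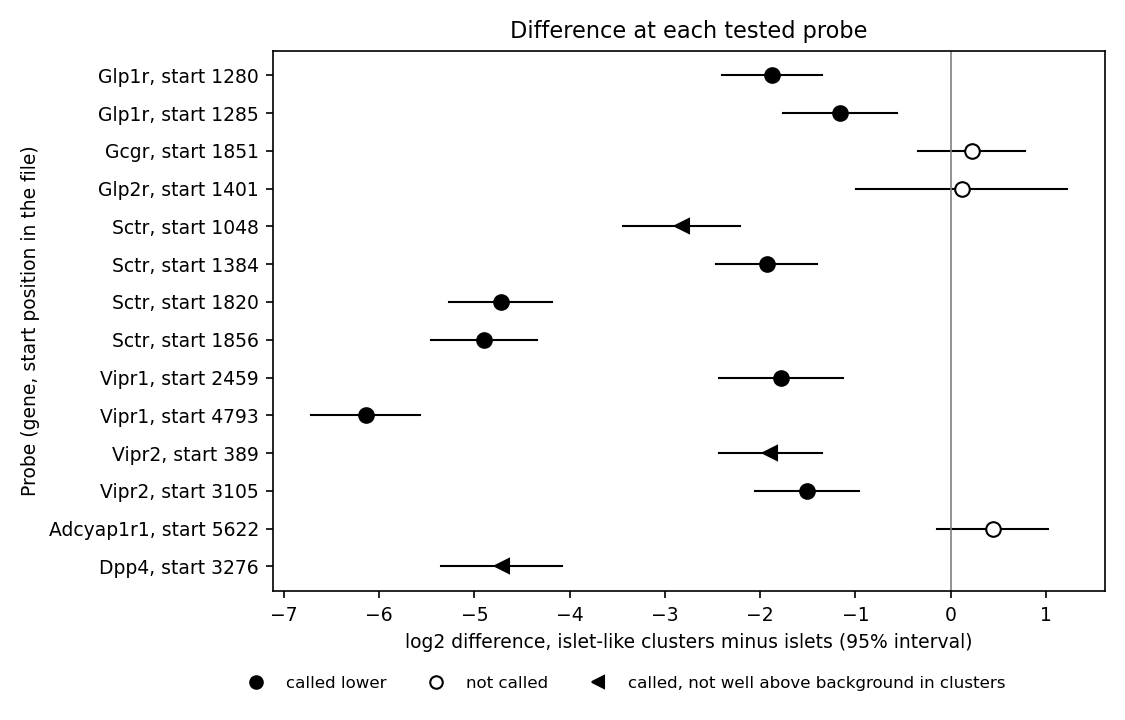
Log2 difference at each of the 14 tested probes (horizontal axis, clusters minus islets, with its 95% interval from the fit over all probes), ordered by gene and by start position along the transcript. All 11 filled symbols lie below 0, and triangles mark probes not well above background in clusters. The probes of Sctr span -4.90 to -1.93 and those of Vipr1 -6.14 to -1.78.

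Over probes the account was the same in direction. Of the 17 probes 14 were tested, 11 were lower in clusters, 3 did not pass and none was higher, while 53.2% of all 34974 probes tested were called, 26.8% lower and 26.4% higher. Probes of 1 gene read the same RNA and are not independent of each other.

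With 4 arrays in 2 groups, many genes share a profile with any given gene, and the resemblance is a description only. Likeness was measured as the distance over the 4 arrays between log2 levels centred on each gene's mean. Each gene was taken by its probe with the highest mean, so another probe of Sctr or Vipr1 could have other neighbours. The genes nearest to Vipr1 were AK040896 (0.14), Plekhb1 (0.19) and Tgm1 (0.20), and 46 genes lay within 0.5 of it. Those nearest to Dpp4 were Aldh1b1 (0.077), Npw (0.092) and Acp5 (0.106), with 98 genes within 0.5. For Sctr they were Eif4b, Zfp599 and an unnamed transcript, with 860 genes within 0.5, and for Vipr2 they were Abracl, AI427809 and Cldn18, with 1020. The 3 nearest to Glp1r included AI391250 (0.056), and 1910 genes lay within 0.5 of it. Around Gcgr there were 6102 such genes and around Adcyap1r1 4856, among them AI849538 and Cecr5 next to Gcgr and Gm9705 and Ugt3a1 next to Adcyap1r1. Glp2r, with its split cluster arrays, had 47, and Aqp2 was among the nearest 3.

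The ligands of these receptors and the enzymes that process them were measured on the same arrays. Of 7 such genes tested, 3 were lower in clusters, 2 were higher and 2 did not pass, with a median difference of -0.27. The shares over all genes, 28.2% lower and 26.6% higher, are the background for this and each list that follows. Gcg, the precursor gene of glucagon, GLP-1 and GLP-2, was lower by 440-fold against the floor, more than its log2 difference of -6.03 with normexp. Pcsk2, the convertase that releases glucagon, differed by -2.89 ± 0.48 (SE, limma adjusted p = 0.0506 without cluster replicate 2). Sct, the secretin gene, differed by -1.30 ± 0.28 (adjusted p = 0.0749 without islet replicate 2). Among the higher genes, Cpe, a carboxypeptidase of prohormone processing, differed by 1.76. It missed the threshold when either cluster array or islet replicate 2 was left out (limma adjusted p = 0.0773, 0.0625 and 0.0870). Pcsk1, the convertase that releases GLP-1, differed by 0.84 and was called in 7 of 17 alternatives. The genes for GIP, VIP and PACAP (Gip, Vip and Adcyap1) could not be tested. Each was well above background on islet replicate 1 alone, at -4.53, -3.35 and -4.07.

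Among other class B receptors and the RAMP proteins that steer them, 3 of 8 tested were higher in clusters, 1 was lower and 4 did not pass. Ramp3 stood at 6.30 and 6.16 in clusters and 1.03 and 1.37 in islets (difference 5.04 ± 0.24 SE). Pth1r, the parathyroid hormone receptor of bone and stromal cells, differed by 3.84 (1.60 with normexp). Calcrl, the partner of RAMPs in the adrenomedullin receptors, differed by 3.13. It missed the threshold when either cluster array was dropped (limma adjusted p = 0.0504 and 0.0531) and was 0.58 with normexp. Both Pth1r and Calcrl were well above background on 1 of the 2 islet arrays. Ramp2 was lower (-1.21), but not when either islet array was dropped (limma adjusted p = 0.0770 and 0.0714).

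Downstream of the receptors, genes for making cyclic AMP were mostly higher in clusters. Of 13 tested genes of the stimulatory G protein and adenylyl cyclases, 9 were higher, 3 lower and 1 did not pass, with a median of 2.06, against 26.6% of all genes called higher. The cyclase Adcy2 was not well above background in islets and was 61.6-fold higher in clusters against the floor. Its log2 difference with normexp was smaller, at 3.00. Adcy7 stood at 3.77 and 3.58 against -2.33 and -2.00, and the G protein subunit gene Gng2 differed by 4.97. Gnas, which encodes the stimulatory alpha subunit, was among the higher genes (1.32 ± 0.24 SE; named for its role, outside the naming rule). The lower genes were Gnal (-2.30, -1.19 with normexp), Adcy4 (-2.27) and Gnb1 (-0.66, called in 9 of 17 alternatives and 0.02 with the mean of its probes). With only probes well above background on all arrays, where Adcy2 could not be tested, 5 were called higher. Over all genes that filter called 5283 of 20851 higher. Of 10 effectors tested, 5 were higher, none lower and 5 did not pass (1 was lower at an unadjusted p below 0.05 in limma). The regulatory subunit of protein kinase A Prkar2b differed by 3.24 and the catalytic subunit Prkacb by 1.31 (limma adjusted p = 0.0886 without islet replicate 2). Prkar1b, another regulatory subunit, stood at -1.87 and -1.94 in clusters on a probe not well above background in islets. Its difference was 3.12 with a floor for dim signals and 0.89 with normexp. It was called in 14 of 16 alternatives and missed the threshold with non-uniform spots kept (2.16, limma adjusted p = 0.0809). Rapgef4, the gene of Epac2, was not well above background on any array.

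Genes that end the signal showed calls in both directions. Of 14 phosphodiesterases, which break down cyclic nucleotides, 9 were higher in clusters, 2 lower and 3 did not pass, with a median of 1.80 (over all genes 26.6% were higher and 28.2% lower). Pde7b was not well above background in islets and was 5.44-fold higher in clusters against the floor. Its log2 difference with normexp was smaller, at 0.62. Pde10a (3.55, 1.56 with normexp) and Pde8a (2.74) were also higher. Pde3a (-1.54) and Pde8b (-1.43) were lower, the former reading 0.21 with the mean of its probes, -0.96 without cluster replicate 1 and -1.34 with scaling to the array median (limma adjusted p = 0.0659), and the latter missing the threshold when islet replicate 1 was dropped (limma adjusted p = 0.0997). Of 13 genes of receptor desensitisation and trafficking, 6 were higher, 3 lower and 4 did not pass. Both beta-arrestins, adaptors that uncouple and internalise receptors, were lower: Arrb1 stood at 1.22 and 1.14 in clusters against 3.39 on both islet arrays, and Arrb2 differed by -2.31. The receptor kinase gene Adrbk2 (now Grk3) was not well above background in clusters and was 40.8-fold lower against the floor. Its log2 difference with normexp was smaller in size, at -2.75. By contrast, the kinase gene Grk5 (3.46) and the G protein regulators Rgs16 (3.89) and Rgs2 (2.88) were higher.

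Of 15 CREB factors and genes known to respond to cyclic AMP, 9 were higher in clusters, 1 was lower and 5 did not pass, with a median of 1.1 (over all genes 26.6% were higher and 28.2% lower). The nuclear receptor genes Nr4a1 and Nr4a2, immediate-early targets of many stimuli besides cyclic AMP, led the list. Nr4a1 stood at 8.36 and 8.10 in clusters against 3.01 and 2.78 in islets, and Nr4a2 differed by 6.08. Crem, a CREB family factor with cyclic AMP-induced isoforms, differed by 2.41. Fos, another immediate-early gene, was lower in clusters (-2.81 ± 0.27 SE). Nr4a3 and Pck1 were not well above background on any array. Within the Dpp4 family and other peptidases that cut incretins, 8 of 11 did not pass, among them Fap, the closest relative of Dpp4 (0.32 ± 0.28 SE). Anpep, aminopeptidase N, was lower (-1.82), and Dpp7 (0.67) and Dpp9 (0.66) were higher, called in 10 and 9 of 17 alternatives, with Dpp9 at 0.06 with the mean of its probes.

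**Figure D3:**
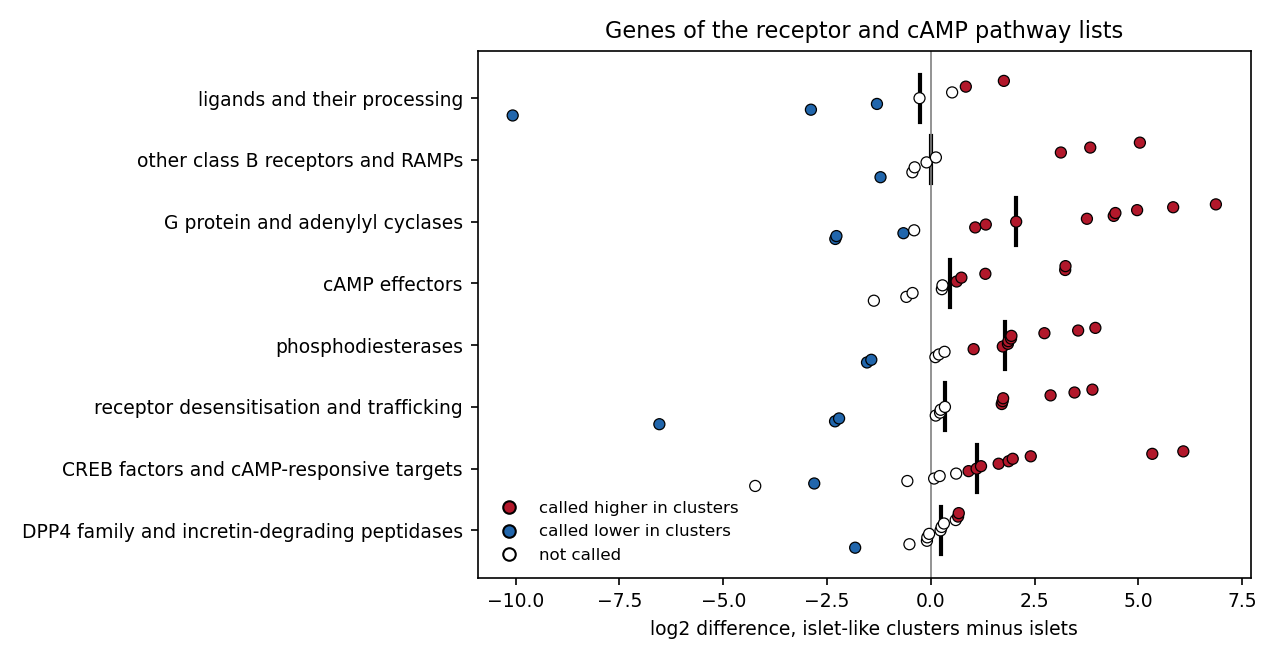
Log2 difference (horizontal axis, clusters minus islets) of each tested gene in 8 lists of ligands, partners and downstream genes. Points are genes, coloured by call, and the upright line is the median of a list. The medians of the cyclase and phosphodiesterase lists (2.06 and 1.80) lie to the right of 0, and Gcg is the point farthest to the left.

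Promoter windows of 250 bases before the annotated start were available for 7 of the 9 genes (RefSeq, GRCm38.p6). They were searched on both strands for the cyclic AMP response element TGACGTCA, its short form TGACG (contained in the full element), the GC box GGGCGG and the TATA motif TATAAA. No window held the full element, which occurs in 1.55% of 32851 such windows, and only that of Vipr1 held the short form (17.8% of all windows). The windows of 3 of the genes called lower are shown, with GC boxes in capitals, because they differ in base composition although the genes were lower together.
Glp1r, chr17:30901617-30901866, plus strand: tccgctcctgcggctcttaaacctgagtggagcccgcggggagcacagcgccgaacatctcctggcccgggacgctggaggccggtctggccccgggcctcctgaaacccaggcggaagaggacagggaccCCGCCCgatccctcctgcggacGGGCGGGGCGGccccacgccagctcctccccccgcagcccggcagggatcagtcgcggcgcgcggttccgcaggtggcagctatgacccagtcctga
Vipr1, chr9:121642466-121642715, plus strand: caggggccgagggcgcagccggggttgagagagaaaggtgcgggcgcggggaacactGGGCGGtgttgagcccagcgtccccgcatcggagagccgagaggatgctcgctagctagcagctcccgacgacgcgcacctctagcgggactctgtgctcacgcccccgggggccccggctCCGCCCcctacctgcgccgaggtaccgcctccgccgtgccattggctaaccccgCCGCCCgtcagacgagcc
Dpp4, chr2:62412232-62412481, minus strand: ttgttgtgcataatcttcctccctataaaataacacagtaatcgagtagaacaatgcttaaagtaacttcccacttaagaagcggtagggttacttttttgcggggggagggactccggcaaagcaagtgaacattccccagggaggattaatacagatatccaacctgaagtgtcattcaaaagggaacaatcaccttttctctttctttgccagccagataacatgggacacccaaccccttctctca
The Glp1r and Vipr1 windows held 3 GC boxes each (those of Glp1r include an overlapping pair) and were 73.2% and 72.8% G and C. The Dpp4 window held none, was 43.6% G and C, and held a TATA motif (12.4% of windows). GC boxes occur in 32.7% of all windows, whose median G and C content was 52.4%. Gcgr, whose level did not pass the test, had 2 GC boxes and 70.4% G and C. These matches describe the letters only.

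**Figure D4:**
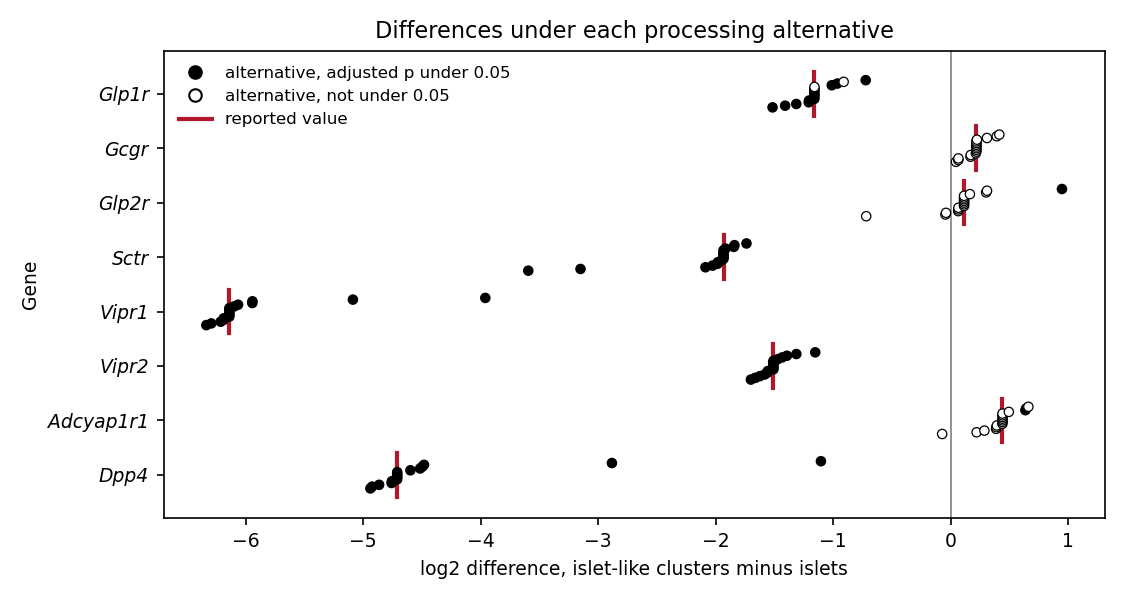
Log2 difference (horizontal axis, clusters minus islets) of the 8 tested genes under each processing alternative. Points are alternatives, filled where the adjusted p was below 0.05, and the upright line is the reported value. Vipr1, Sctr, Vipr2 and Dpp4 stay below 0 with filled points throughout, Dpp4 moves to -1.10 with normexp, and Glp2r has points on both sides of 0.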

How the data were processed

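The deposited scanner files hold spot intensity extracted with Agilent Feature Extraction, per the file headers on mm9 probe positions, background-subtracted and detrended. The headers give 11.5.1.1 as the version of the grid placement. The software's flags were used as given in the deposited files (codes with no unit). The deposited table of the authors holds log2 values that correlated with the scanner values at r of 0.99995 or higher. It served as an alternative.

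Log2 processed signal was scaled to each array's 75th percentile. Non-uniform spots (510, 2, 26 and 4 per array) and control spots were left out, and no spot was saturated. Probes well above background on both arrays of a group were kept (34974 probes, 24596 genes, each gene by its probe with the highest mean). Clusters minus islets was fitted with limma 3.58.1 in R 4.3.3, 2-sided, over all genes and over all probes, after tests on simulated data. Of the fit's 9.06 degrees of freedom 2 are residual, and the 4 arrays limit the precision.

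The genes and lists were chosen with earlier results of these data known. The called list genes that are named are the up to 3 per direction with the largest differences, apart from Gnas and Cftr. List genes that were not called or not tested, such as Fap and Rapgef4, were named outside this rule. All 17 probe accessions matched the RefSeq table. The start positions in the files rise by the same distance as the genome for the probe pairs of Glp1r and Vipr1 and the 3′ pairs of Sctr and Vipr2. For the other pairs the genome distance is larger. The start positions were read as transcript positions. No mm9 gene annotation was used, so exon and UTR status is not given. Protein identity between the receptors was planned and not run.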

Additional observations from a re-analysis of the deposited data

How the results depend on the processing

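The call that Vipr1, Sctr and Vipr2 were lower was made under all 17 alternatives, and that for Dpp4 under the 16 that could test it. When each probe had to be above background everywhere, 4 of the genes were called lower, since Dpp4 was not tested there. With 1 array left out, 4 to 5 were called lower and 0 to 1 higher. Scaling to the array median and quantile normalization each called 1 gene higher, Adcyap1r1, and leaving out cluster replicate 2 called 1, Glp2r. Scaling to the array median moved the median difference of all genes from -0.10 to 0.09, and scaling over the probes detected on every array moved it to -0.25. Direction turned with normexp for Adcyap1r1 (-0.071) and Glp2r (-0.043), for Glp2r with that latter scaling (-0.039) and with 1 array left out (-0.72 to 0.95, negative without cluster replicate 1), and with the mean of a gene's probes for Gnb1 (0.024) and Pde3a (0.21). The cause was not tested.

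Over all genes the count of calls ran from 7650 to 10120 with 1 array left out (3741 to 5442 lower, 3909 to 5404 higher), against 13490. The replicate numbers only number the arrays (deviations of same-numbered arrays correlated at r = -0.02 over genes). With the replicate block 11307 genes were called, and the 5 genes lower and 0 higher were as without it. Leaving out population outlier spots was chosen after seeing the data. Of the gene list counts, 93 moved by over 1.5 times, or from or to 0, under an alternative and 519 did not. Dim signal limits Gipr, Dpp4 in clusters, the second Glp2r probe and the middle Vipr2 probe. It also limits the upstream probes of Sctr, Vipr2 and Glp1r in clusters, and Adcyap1r1 was dim on all arrays.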
